A study of Mus musculus with 6 samples.

Results

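Dbp, Tef, Hlf and Nfil3 encode the basic leucine zipper (bZIP) transcription factors that carry the circadian clock's timing to its output genes. They were taken by symbol from the count matrices, where they made up 4 of 31053 genes, and all 4 were present. Dbp, Tef and Hlf form the PAR bZIP family, named for a domain rich in proline and acidic residues, and they activate genes that hold a D-box. Nfil3, also called E4bp4, binds the same D-box and represses. In the textbook clock, Bmal1 (gene Arntl) and Clock bind E-boxes and drive Dbp and Tef as well as the repressors Nr1d1 and Nr1d2, and Nr1d1 in turn represses Nfil3. Outside the clock, Nfil3 is needed to make NK cells and Xcr1+ dendritic cells and is induced by cytokines in several immune cells, and Hlf is known from blood stem cells and from a leukaemia fusion protein.

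The material was labelled as YUMM2.1, a mouse melanoma cell line, carrying either an Empty vector (EV) or Bmal1 WT, and the labels did not say whether it came from culture or from a tumour, nor whether the cells' own Bmal1 was present. Each group was 1 droplet library in which 3 replicates had been marked with hashtag antibodies (h1, h7 and h8 for EV, h3, h5 and h9 for Bmal1 WT), so group and library cannot be told apart, and the labels do not say what separates the replicates of a group. Files also given for another group, Bmal1 bHLH, were copies of the Bmal1 WT files (3 of 3 compared) and were not used. No time of day was given for either group.

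After filtering, 3978 EV barcodes (median 5094 UMIs) and 2386 Bmal1 WT barcodes (median 7570.5 UMIs) remained, of which 3791 and 2138 entered a class by marker genes. A UMI (unique molecular identifier) counts 1 captured transcript. Exactly 1 hashtag was called on 3222 EV and 1621 Bmal1 WT barcodes, and 5 barcodes were shared between the libraries. The classes carried their markers over 2-fold above the other cells for 10 of 10 markers in T-like cells, 8 of 8 in NK-like cells and 10 of 10 in macrophage or monocyte-like cells. In melanoma-like cells this held for 8 of 14, with Sox10 and S100b high and the pigment genes Mlana and Tyrp1 at 0 UMIs in both libraries. The immunoglobulin genes Igha and Igkc were among the 10 leading genes of the macrophage or monocyte-like class. Most barcodes gated were immune cells. No hashtag was called on 31 of 94 EV and 151 of 274 Bmal1 WT melanoma-like cells, nor on 101 of 143 and 176 of 229 fibroblast-like cells, and those cells entered no test. The 4 factors together were sparse: the kept barcodes held 657 UMIs of Dbp, 1264 of Tef, 531 of Hlf and 6701 of Nfil3.

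The genes lie on separate chromosomes of GRCm38: Dbp at chr7:45705088-45710203 on the plus strand, Tef at chr15:81802421-81826863 on the plus strand, Hlf at chr11:90336536-90390895 on the minus strand and Nfil3 at chr13:52967209-52981073 on the minus strand. Sphk2 overlaps Dbp and Gm17597 overlaps Tef, each on the opposite strand, and the use of strand in the counting was not given in the sources used here. Promoter windows of 300 bases around the RefSeq starts (GRCm38.p6) were searched on both strands for the E-box CACGTG, which Bmal1 and Clock bind, for the E′-box CACGTT, and for the D-box spellings TTATGTAA, TTATGCAA, TTACGTAA and TTACATAA. Of 32851 windows in all, 7.15% held the E-box, 4.68% the E′-box and 1.78% a D-box. Tef was the only factor of the 4 with an E-box in its window, and it had one at both of its RefSeq starts, 127 and 138 bases before the start. None of the 4 had an E′-box or a D-box in these windows, which says only that those letters were not there. The stretches around the Tef E-boxes are shown because Tef was the PAR factor with the largest separation between the groups in lymphocytes, with the E-box in capitals:
Tef, chr15:81802534-81802563, plus strand: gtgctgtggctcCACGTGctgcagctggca
Tef, chr15:81811264-81811293, plus strand: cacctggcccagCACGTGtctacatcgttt
By GENCODE annotation the upstream stretch lies in the 5′ UTR of 1 of 10 Tef transcripts, and the downstream stretch is intronic in 3 transcripts and exonic in 0. For comparison, an E-box stood in the window of 4 of the 14 core clock genes that had one (Bhlhe41, Ciart, Cry1 and Per1), and a D-box in 2 (Per1 and Per3). A match in letters is a description and no measured site.

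Each factor had its own distribution over cell classes. Levels are CPM, that is UMIs scaled to a common total per class, in each hashtag replicate, given as the mean ± SD over replicates. They serve to compare classes within a gene, and not genes with each other.

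**Figure D1:**
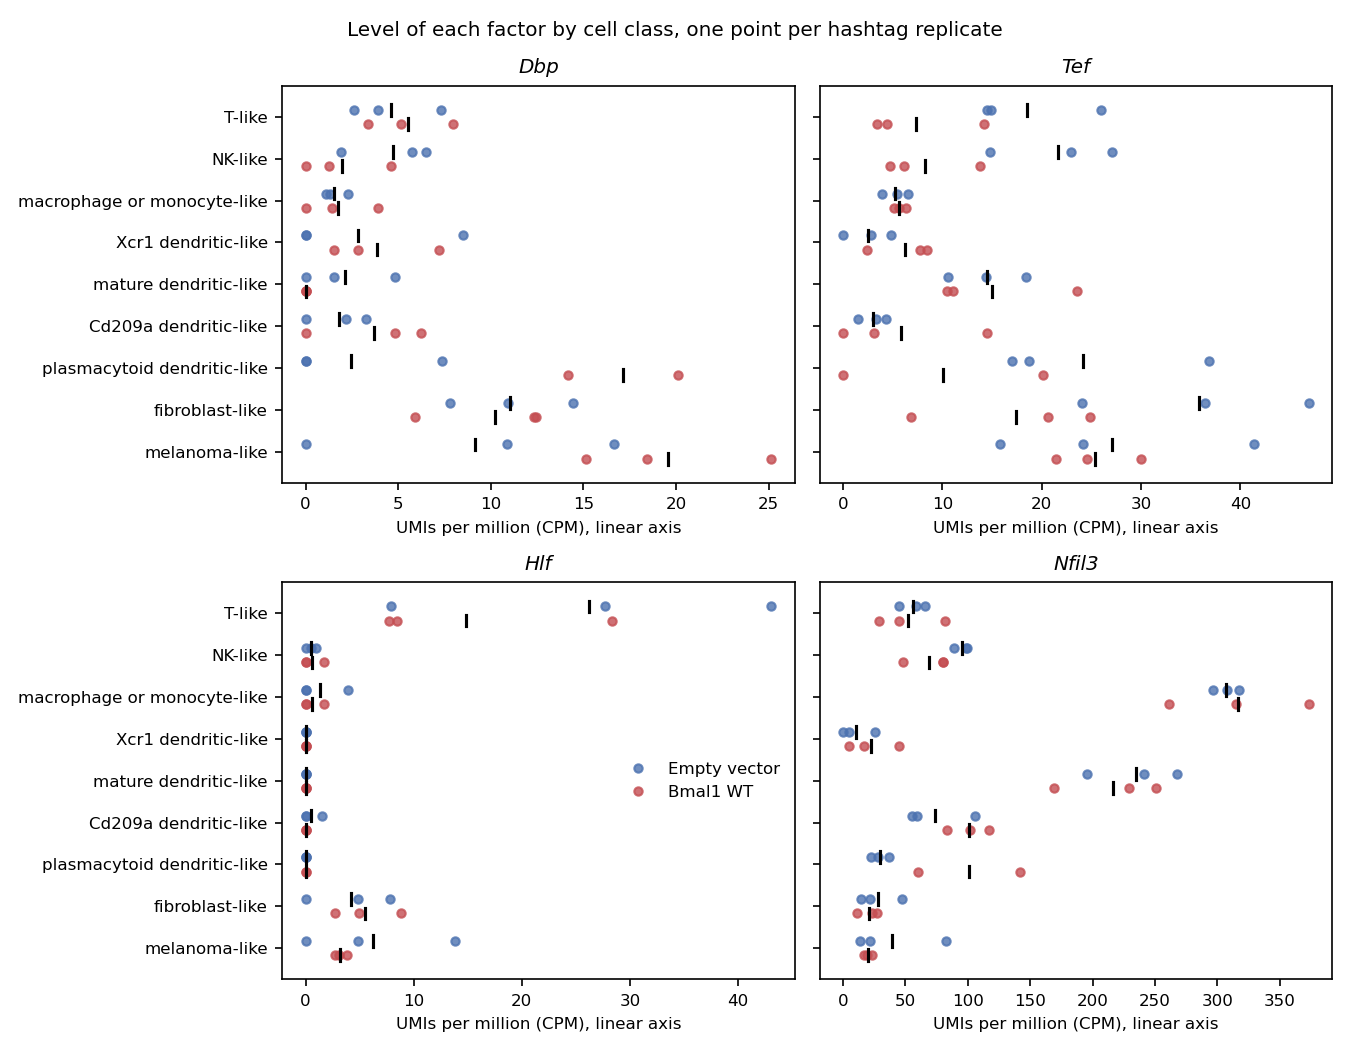
CPM of each factor (linear x axis) in 9 cell classes, with 1 point per hashtag replicate and a black bar at the group mean, for Empty vector (blue) and Bmal1 WT (red). Nfil3 was highest in macrophage or monocyte-like and mature dendritic-like cells, Hlf in T-like cells, and Tef and Dbp in melanoma-like and fibroblast-like cells.

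Dbp, the PAR activator whose transcript swings strongly over the day in many tissues, was highest in melanoma-like cells at 14.4 ± 8.45 CPM (SD, n = 6) and fibroblast-like cells at 10.6 ± 3.203 (SD, n = 6). In melanoma-like cells the EV replicates read 16.6, 0 and 10.9 CPM and the Bmal1 WT replicates 18.4, 15.1 and 25.1 CPM. The EV replicate at 0 had 4 cells and 24156 UMIs in all. Immune classes ranged from 8.33 CPM in plasmacytoid dendritic-like cells (n = 5) through 5.06 in T-like cells down to 1.66 in macrophage or monocyte-like cells and 1.05 in mature dendritic-like cells. Only classes next to each other in the order of these same Dbp means were compared. Classes far apart, such as melanoma-like and macrophage or monocyte-like cells, were not tested against each other. Among the neighbouring pairs the smallest exact sign-flip p was 0.375 (two-sided, adjusted p = 1). With 6 replicates this p cannot fall under 0.03125, and no pair could reach an adjusted p of 0.05. These comparisons therefore cannot decide whether Dbp differs between classes.

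Tef, another PAR activator, was seen in all 9 classes and had its highest means in fibroblast-like cells at 26.6 ± 13.7 CPM (SD, n = 6) and melanoma-like cells at 26.2 ± 8.76 (SD, n = 6). NK-like cells held 14.9 CPM, mature dendritic-like cells 14.7 and T-like cells 12.9. It was lowest in macrophage or monocyte-like cells at 5.47 ± 0.952, Cd209a+ dendritic-like cells at 4.46 ± 5.15 and Xcr1+ dendritic-like cells at 4.37 ± 3.27 CPM (SD, n = 6 each). The macrophage or monocyte-like replicates spanned only 3.88 to 6.54 CPM, and the fibroblast-like ones 6.85 to 46.9 CPM. Among neighbouring pairs the smallest p was for the step from T-like to macrophage or monocyte-like cells (exact sign-flip p = 0.125, adjusted p = 0.9). Here too no pair could reach the adjusted threshold.

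Hlf, the third PAR activator, was highest by replicate mean in T-like cells, which held 163 of its 309 UMIs in EV and 51 of its 222 in Bmal1 WT. Mitochondria-poor melanoma-like barcodes, most of which carried no hashtag, are described separately. Its mean was 20.5 ± 14.8 CPM (SD, n = 6) in T-like cells, 4.86 ± 3.24 in fibroblast-like cells and 4.71 ± 4.74 in melanoma-like cells. NK-like cells, which share much of their program with T cells, held 0.529 ± 0.683 CPM, from 3 UMIs in 1195 EV cells and 5 in 435 Bmal1 WT cells. Xcr1+, mature and plasmacytoid dendritic-like cells held 0 UMIs. For mature dendritic-like cells that is 0 of 171 EV cells and 0 of 116 Bmal1 WT cells, which allow a level of up to 1.67 and 2.64 CPM (3 counts). T-like cells exceeded fibroblast-like cells in 5 of 6 replicates by 15.7 ± 14.9 CPM (SD of the difference), with an exact sign-flip p of 0.0625 and an adjusted p of 0.75. This pair too was set by the order of the same Hlf means.

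Nfil3, the repressor, showed a steep gradient over the immune classes. Macrophage or monocyte-like cells held 312 ± 36.3 CPM (SD, n = 6; EV 308, 317 and 296, Bmal1 WT 373, 262 and 315). Mature dendritic-like cells, marked by Ccr7 and Fscn1, held 226 ± 36.8 CPM, and all their replicates lay between 169 and 268 CPM. Cd209a+ dendritic-like cells followed at 87.1 ± 25.4, NK-like cells at 82.4 ± 19.1, plasmacytoid dendritic-like cells at 57.9 ± 48.9 (n = 5) and T-like cells at 54.1 ± 18.4 CPM. Melanoma-like cells at 29.4 ± 26.4, fibroblast-like cells at 24.2 ± 12.7 and Xcr1+ dendritic-like cells at 16.2 ± 16.99 CPM were lowest. The 2 upper steps held in 6 of 6 replicates, by 86.2 ± 65.6 CPM from macrophage or monocyte-like to mature dendritic-like cells and by 138 ± 45.4 CPM from those to Cd209a+ dendritic-like cells. Each had an exact sign-flip p of 0.03125, the smallest that 6 replicates can give, and an adjusted p of 0.5625 over the 36 neighbour pairs of the 4 genes. The order of classes came from the Nfil3 means of these same replicates, so part of that agreement was built in. At least 1 Nfil3 UMI was seen in 71.3% of EV and 74.9% of Bmal1 WT macrophage or monocyte-like cells (Clopper-Pearson 95% intervals 67.9 to 74.6 and 70.3 to 79.2; median 7116.5 and 9720 UMIs). In Xcr1+ dendritic-like cells the shares were 20.6% and 18.3% at medians of 5676 and 6576 UMIs. Thinned to 2000 UMIs per cell, the macrophage or monocyte-like shares were 37.8% and 49.6% and the Xcr1+ dendritic-like shares 6.25% and 2.41%.

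The main comparison asked whether these output factors differ between Bmal1 WT and EV in each class. Bmal1 is the clock's activator, but the labels give the vector for YUMM2.1, a melanoma line. Immune-like and fibroblast-like cells carried markers of other cell types. For them the group name marks the library they came in, and no vector in those cells is labelled. UMIs were summed per hashtag replicate and class and tested with edgeR's quasi-likelihood test, with Benjamini-Hochberg adjustment over all genes of the class. Of the 4 factors, 4 had enough UMIs to be tested in T-like and melanoma-like cells, 3 in NK-like and fibroblast-like cells, 2 in macrophage or monocyte-like and mature dendritic-like cells, and 1, Nfil3, in Xcr1+, Cd209a+ and plasmacytoid dendritic-like cells. None passed an adjusted p of 0.05 in any class. The share of all genes that did was 0.0928% in T-like, 0.0% in NK-like, 0.0% in macrophage or monocyte-like, 0.0132% in Xcr1+ dendritic-like, 0.0% in mature dendritic-like, 0.0114% in Cd209a+ dendritic-like, 0.565% in plasmacytoid dendritic-like, 0.0% in fibroblast-like and 0.0% in melanoma-like cells. An unadjusted p under 0.05 was reached by 17.8% of genes in T-like, 13.1% in NK-like, 10.3% in macrophage or monocyte-like, 5.54% in Xcr1+ dendritic-like, 4.64% in mature dendritic-like, 7.39% in Cd209a+ dendritic-like, 7.66% in plasmacytoid dendritic-like, 7.31% in fibroblast-like and 4.44% in melanoma-like cells. Of the factors, Tef in T-like cells, Tef in NK-like cells, Nfil3 in plasmacytoid dendritic-like cells and Hlf in melanoma-like cells had an unadjusted p under 0.05.

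**Figure D2:**
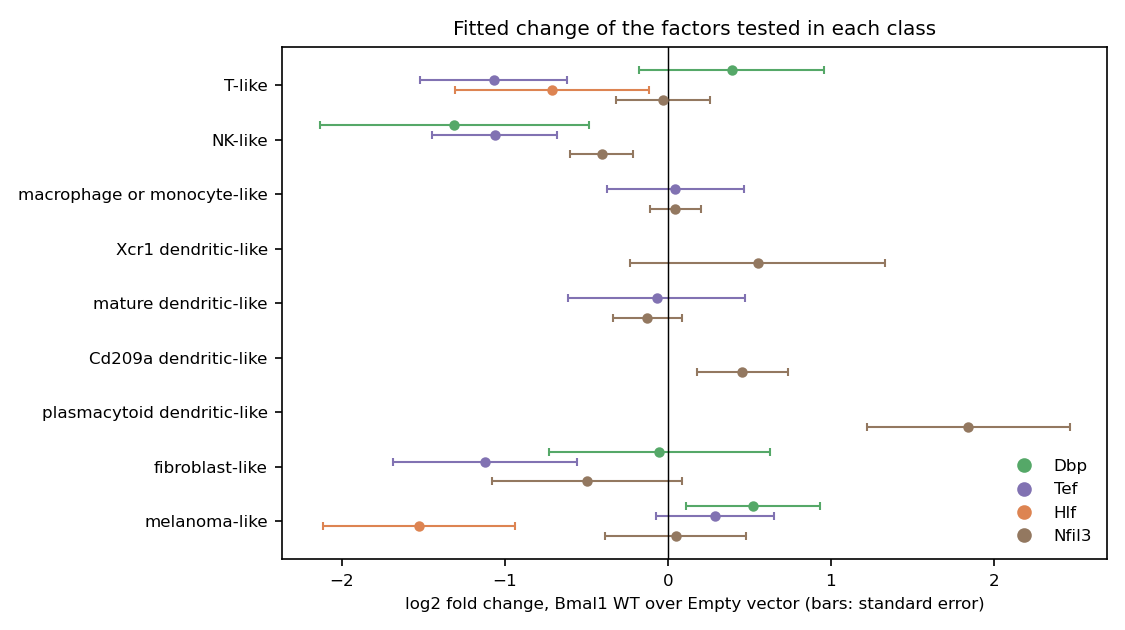
Fitted log2 fold change of Bmal1 WT over Empty vector (x axis) with its standard error (bars) for each factor tested in a class (y axis). Tef lies below 0 by about the same amount in T-like, NK-like and fibroblast-like cells (-1.07, -1.06 and -1.12), and Nfil3 near 0 in T-like, macrophage or monocyte-like and melanoma-like cells.

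Tef was the factor with an unadjusted p under 0.05 in both NK-like and T-like cells. In NK-like cells its level was 27.1, 22.9 and 14.8 CPM in the EV replicates and 13.8, 6.15 and 4.77 CPM in the Bmal1 WT replicates, so the groups did not overlap. The log2 fold change was -1.06 ± 0.38 (SE, edgeR unadjusted p = 0.0165, adjusted p = 0.277). The groups did not overlap for 1731 of the 10328 genes tested in NK-like cells and for 2641 of the 10774 in T-like cells. In T-like cells Tef read 14.5, 26.0 and 14.9 CPM in EV and 14.2, 4.43 and 3.38 CPM in Bmal1 WT, again without overlap but with 1 Bmal1 WT replicate next to the lowest EV replicates. The log2 fold change there was -1.07 ± 0.45 (SE; edgeR unadjusted p = 0.0375, adjusted p = 0.244). Leaving out that replicate, h3, gave -2.11 in T-like and -1.92 in NK-like cells, and leaving out h5 gave -0.73 and -0.87. Its levels in subsets of T-like cells are given with the subset values of the other factors.

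In fibroblast-like cells Tef read 46.9, 24.1 and 36.4 CPM in EV and 24.9, 6.85 and 20.6 CPM in Bmal1 WT. The groups overlapped there by 1 replicate, and the fitted log2 value was -1.12 ± 0.56 (SE; edgeR unadjusted p = 0.0742, adjusted p = 0.704), or -0.65 without Bmal1 WT replicate h5. In macrophage or monocyte-like cells, by contrast, the fitted value was 0.05 ± 0.42, and in mature dendritic-like cells -0.07 ± 0.54. In melanoma-like cells the EV replicates read 24.2, 41.4 and 15.8 CPM and the Bmal1 WT replicates 24.6, 21.4 and 30.05 CPM. The EV replicate at 41.4 CPM rests on 1 UMI in 4 cells. The fit, which weights replicates by their UMIs, gave 0.29 ± 0.36 (edgeR adjusted p = 0.999994), while the plain mean was higher in EV (27.1 against 25.3 CPM). The difference between the change in NK-like and the change in melanoma-like cells, tested after the data had been seen, was -1.42 ± 0.56 on the log2 scale (edgeR unadjusted p = 0.0188, adjusted p = 0.49995). In that test 7.18% of all genes had an unadjusted p under 0.05.

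Depth and composition moved with the groups in both lymphocyte classes. Median UMIs were 4186 in EV and 6386 in Bmal1 WT T-like cells, and 4269 and 6187 in NK-like cells. Ribosomal protein genes took 16.3% and 19.9% of T-like UMIs and 17.4% and 21.4% of NK-like UMIs. The summed macrophage or monocyte markers were 642 and 414 CPM in T-like cells (9 of 10 detected in each library) and 833 and 614 CPM in NK-like cells (10 of 10 in each). The median log2 fold change of all genes was -0.10 in T-like and -0.08 in NK-like cells. The part of these in the Tef values was not tested. Hashtag sums alone do not separate fewer cells holding a transcript from less of it per cell. By library, the share of T-like cells with a Tef UMI was 8.91% in EV and 8.17% in Bmal1 WT. In NK-like cells it was 9.96% and 8.28%. Thinned to a common depth, with shallower cells left out, the shares were 4.04% and 3.69% in T-like cells. In NK-like cells the thinned shares were 5.22% and 2.68%. The thinned Bmal1 WT shares rest on 13 T-like and 11 NK-like cells, and the groups' shares were not tested.

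Dbp, a direct Bmal1 target in the textbook clock, did not show a difference beyond the replicate spread. In melanoma-like cells the log2 fold change was 0.53 ± 0.41 (SE; edgeR unadjusted p = 0.226, adjusted p = 0.999994), and the groups overlapped. In NK-like cells Dbp read 6.51, 5.73 and 1.91 CPM in EV and 1.26, 4.61 and 0 CPM in Bmal1 WT, which gave a fitted log2 value of -1.31 ± 0.82 from 32 UMIs (edgeR adjusted p = 0.525). In T-like cells it was 0.39 ± 0.57 and in fibroblast-like cells -0.05 ± 0.68.

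Nfil3 had the most UMIs over all kept barcodes. In macrophage or monocyte-like cells, with 3038 UMIs, the log2 fold change was 0.05 ± 0.16 (SE; edgeR adjusted p = 0.951), and in mature dendritic-like cells -0.12 ± 0.21 (adjusted p = 0.999). NK-like cells were lower in every Bmal1 WT replicate (80.0, 79.9 and 47.7 CPM) than in every EV replicate (98.8, 99.7 and 88.5 CPM), a log2 fold change of -0.41 ± 0.19 (edgeR unadjusted p = 0.0564, adjusted p = 0.386). The lowest of these, h9, held 66 cells, and without it the value was -0.26. Replicates of the groups did not overlap for 1731 of the 10328 genes tested in NK-like cells. Plasmacytoid dendritic-like cells went the other way, at 22.7, 28.0 and 36.8 CPM in EV against 141 and 60.4 CPM in the Bmal1 WT replicates with at least 3 cells, which had 5 and 3 cells. Of the 10 UMIs behind the 141 CPM, 7 came from 1 cell, without which that replicate read 53.9 CPM. That log2 fold change of 1.84 ± 0.62 (edgeR unadjusted p = 0.00892, adjusted p = 0.387) rests on 25 UMIs, and 1218 of the 4423 genes tested there had no overlap. In Cd209a+ dendritic-like cells the value was 0.46 ± 0.28 and in Xcr1+ dendritic-like cells 0.55 ± 0.78. In melanoma-like cells it was 0.05 ± 0.43, where the plain mean was higher in EV (39.2 against 19.6 CPM), with the EV replicate of 4 cells at 82.8 CPM from 2 UMIs.

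Hlf in T-like cells read 27.7, 43.1 and 7.89 CPM in EV and 7.74, 28.4 and 8.46 CPM in Bmal1 WT. Replicates of both groups spread over the same range, and the log2 fold change was -0.71 ± 0.60 (SE; edgeR adjusted p = 0.566). Leaving out Bmal1 WT h5 gave -1.63 and leaving out EV h7 gave -0.26. A few cells carried much of it. In the Bmal1 WT replicate h5, 20 of 32 UMIs came from 1 cell with 79287 UMIs, and without that cell the replicate read 11.4 CPM. In the EV replicate h1, 20 of 78 UMIs came from 1 cell. At least 1 Hlf UMI was seen in 5.97% of EV and 6.54% of Bmal1 WT T-like cells (Clopper-Pearson 95% intervals 4.66 to 7.52 and 4.23 to 9.57), against 0 of 287 mature dendritic-like cells, whose median depth was 8113 and 6319 UMIs.

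**Figure D3:**
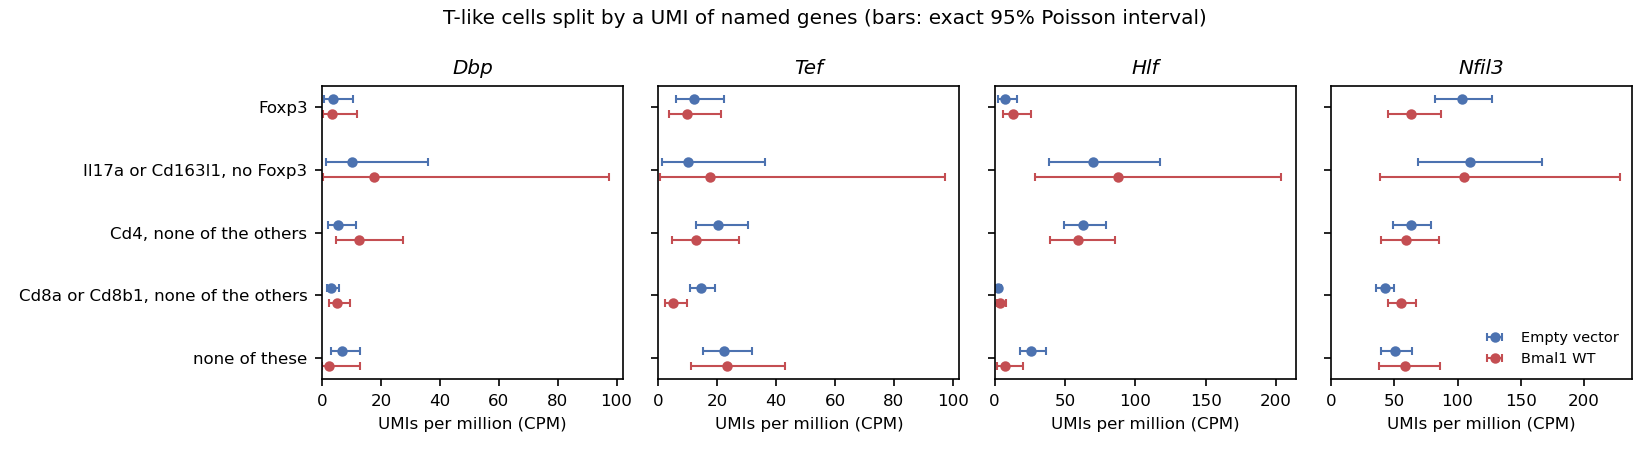
CPM of each factor (x axes, linear) in T-like cells of each library split by whether they held a UMI of the genes named on the y axis, with exact 95% Poisson intervals (bars) that cover counting error only. Hlf library sums were higher in T-like cells with Cd4 alone and in those with Il17a or Cd163l1 than in those with Cd8a or Cd8b1, with 21 of 28 Bmal1 WT UMIs of the Cd4 subset in 2 cells.

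The Hlf transcripts of T-like cells were unevenly spread. T-like cells were split after the data had been seen, by UMIs of Foxp3 (the regulatory T cell factor), Il17a or Cd163l1 (the latter a marker of gamma-delta T cells), Cd4, and Cd8a or Cd8b1. Cells with Cd4 and none of the other genes held Hlf at 62.8 CPM in EV (218 cells, exact Poisson 95% interval 49.1 to 79.3) and 59.0 CPM in Bmal1 WT (65 cells, 39.2 to 85.3). The replicates read 124, 84.7 and 22.2 CPM in EV and 20.03, 132 and 15.8 CPM in Bmal1 WT, where 21 of the 28 UMIs came from 2 cells of h5. Cells with Il17a or Cd163l1 held 70.0 CPM in EV (40 cells, 38.3 to 117.5) and 87.4 CPM in Bmal1 WT (5 cells, 28.4 to 203.9), the latter from 5 UMIs in 2 cells. Foxp3+ cells held 7.28 and 13.1 CPM, and cells with Cd8a or Cd8b1 and none of the other genes 2.21 and 3.95 CPM. The Cd4+ subset was thus above the Cd8+ subset in both library sums, with most of the Bmal1 WT value from 1 replicate. Cells with none of these UMIs held 26.1 CPM in EV (35 UMIs) and 6.99 CPM in Bmal1 WT (3 UMIs). These intervals cover counting error only, and UMIs of 1 cell are not independent of each other. When barcodes were clustered instead, the highest Hlf level was in cluster 5, with 128 UMIs and 81.2 CPM in 213 cells. Its leading genes included Penk, Il10, Il2ra, Foxp3 and Tnfrsf4. T-like cells with a Foxp3 UMI held only 6 Hlf UMIs in EV and 8 in Bmal1 WT. The cluster's leading genes therefore do not place its Hlf in Foxp3+ cells. Cluster 20 came next, with 166 Hlf UMIs and 56.0 CPM in 431 barcodes. It was given no class, had a median mitochondrial share of 0.03%, and Hlf was among its leading genes. Cluster 1, led by Il17a, S1pr1 and Icos, held 32.0 CPM in 361 cells.

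Nfil3 did not follow the same split. It was 103 CPM in EV and 63.6 CPM in Bmal1 WT Foxp3+ cells, with intervals of 82.4 to 128 and 45.2 to 87.0 that overlapped. It was 110 and 105 CPM in cells with Il17a or Cd163l1, 62.8 and 59.0 CPM in the other Cd4+ cells, and 42.3 and 55.3 CPM in cells with Cd8a or Cd8b1. In the Cd4+ cells its sums equalled those of Hlf (71 and 28 UMIs), but lay in 36 EV and 17 Bmal1 WT cells, against 27 and 8 for Hlf. Tef was at 14.5 CPM in EV (46 UMIs, exact Poisson 95% interval 10.6 to 19.4) and 5.08 in Bmal1 WT (9 UMIs, 2.32 to 9.64) in cells with Cd8a or Cd8b1. It read 20.4 and 12.6 CPM in the Cd4+ cells, 12.1 and 9.79 in Foxp3+ cells, 22.4 and 23.3 in cells with none of these UMIs, and 10.0 and 17.5 in cells with Il17a or Cd163l1 (2 UMIs and 1 UMI), each pair with overlapping intervals. Dbp stayed at or under 17.5 CPM with at most 10 UMIs in any subset.

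Hlf in melanoma-like cells shows how 1 cell can set a value. The EV replicates read 4.83, 0 and 13.8 CPM and the Bmal1 WT replicates 3.84, 2.73 and 3.07 CPM. The fit gave a log2 fold change of -1.53 ± 0.59 (SE; edgeR unadjusted p = 0.0238, adjusted p = 0.999994), although the groups overlapped. All 28 Hlf UMIs of the highest EV replicate, h8, came from 1 of its 23 cells. Without that cell, a choice made after seeing the data, the log2 fold change was 0.41 ± 0.94 (edgeR unadjusted p = 0.673).

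Hlf was also found in melanoma-like barcodes with almost no mitochondrial RNA. These were barcodes gated as melanoma-like with under 1% of UMIs from mitochondrial genes: 59 in EV (median 3624 UMIs) and 143 in Bmal1 WT (median 4733 UMIs), with a median mitochondrial share of 0% and 0.0059%. The other melanoma-like cells had medians of 27895.5 and 40412 UMIs. Of the mitochondria-poor barcodes, 52 of 59 and 126 of 143 carried no hashtag. Values are therefore per library with exact Poisson intervals, and Bmal1 WT was not tested against EV. They held 9 of 14 melanoma markers, against 12 of 14 in the other melanoma-like cells, with summed marker levels of 1496 CPM in EV and 957 in Bmal1 WT against 2106 and 1571 CPM. Sox10 was present at 261 and 165 CPM. Only 4 of the 14 markers were over 2-fold above all other barcodes, and none was among the 10 leading genes, of which Hlf was one. Summed T cell markers were 11.2 and 4.85 CPM, against 4887 and 4229.7 CPM in T-like cells.

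Hlf stood at 137 CPM in the mitochondria-poor EV barcodes (61 UMIs, 95% interval 105 to 176) and 37.0 CPM in those of Bmal1 WT (61 UMIs, 28.3 to 47.5). In the other melanoma-like cells it stood at 10.7 and 3.82 CPM. At least 1 Hlf UMI was seen in 35.6% of the mitochondria-poor EV barcodes (Clopper-Pearson 95% interval 23.6 to 49.1) and in 10.5% of the Bmal1 WT ones (5.99 to 16.7). Thinned to 2000 UMIs the shares were 22.0% and 8%, with 18 and 43 shallower barcodes left out. In EV the 61 UMIs were spread over 21 barcodes, with at most 7 in 1 barcode, and without the 3 highest barcodes the level was 98.1 CPM. In Bmal1 WT they were spread over 15 barcodes, with 19 in 1 of them, and the level without the 3 highest was 16.1 CPM. The few mitochondria-poor barcodes with exactly 1 hashtag held less: 4 Hlf UMIs or 42.0 CPM in 7 EV barcodes, and 1 UMI or 3.93 CPM in 16 Bmal1 WT barcodes. The other melanoma-like cells with exactly 1 hashtag held 9.45 CPM in EV and 2.99 CPM in Bmal1 WT. Over the 3 replicates with at least 3 mitochondria-poor barcodes, Hlf averaged 0 CPM in these and 2.19 CPM in the other melanoma-like cells (exact sign-flip p = 0.5). With 3 replicates this p cannot fall under 0.25, so the comparison cannot decide.

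**Figure D4:**
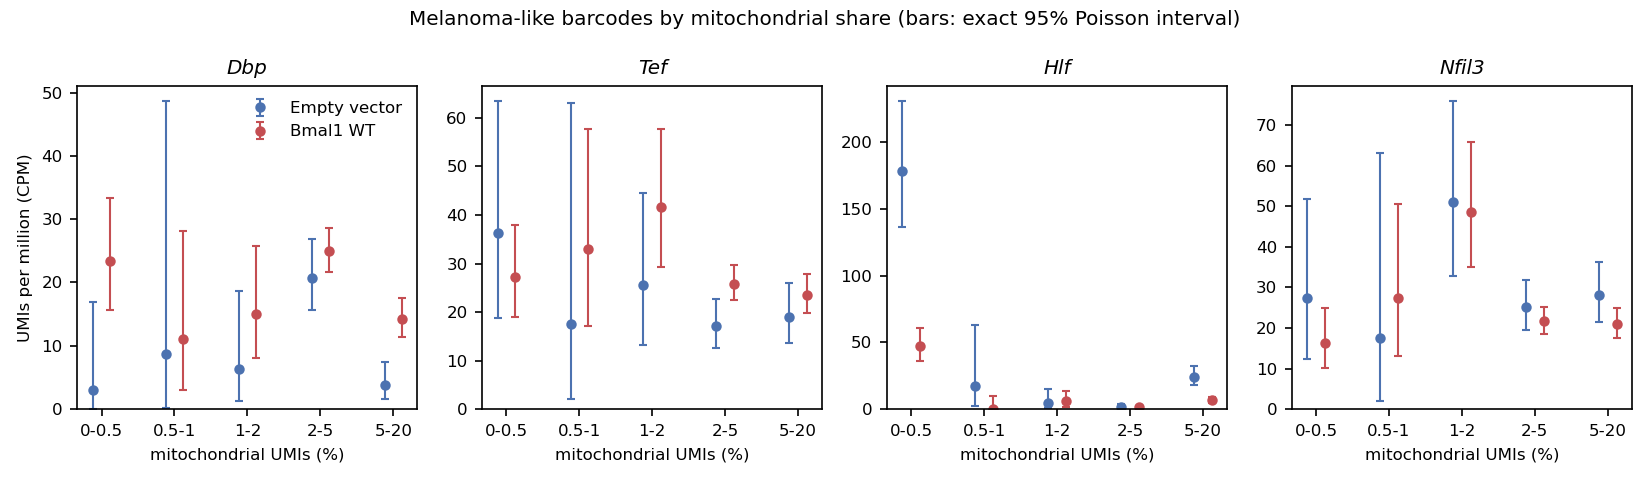
CPM of each factor (y axes, linear, each panel its own range) in melanoma-like barcodes by their share of mitochondrial UMIs (x axis, percent), for Empty vector (blue) and Bmal1 WT (red), with exact 95% Poisson intervals that cover counting error only. Hlf read 179 and 47.4 CPM in the lowest band and 1.45 and 1.498 CPM between 2 and 5%, while the Tef intervals of the lowest band overlap those between 2 and 5%.

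Over bands of the mitochondrial share, Hlf in EV read 179 CPM from 0 to 0.5%, 17.5 from 0.5 to 1%, 4.25 from 1 to 2%, 1.45 from 2 to 5% and 24.3 from 5 to 20%. In Bmal1 WT it read 47.4, 0, 5.80, 1.498 and 6.59 CPM. Both libraries were thus highest in the lowest band, which held 56 EV and 132 Bmal1 WT barcodes, against 38 and 120 in the band from 2 to 5%. The band from 0.5 to 1% held only 3 EV and 11 Bmal1 WT barcodes. The highest EV band includes the cell with 28 Hlf UMIs.

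The other factors did not share this pattern. Dbp stood at 4.50 CPM in the mitochondria-poor EV barcodes (2 UMIs, 95% interval 0.545 to 16.2) and 20.6 CPM in those of Bmal1 WT (34 UMIs, 14.3 to 28.8), against 12.8 and 20.01 CPM in the other melanoma-like cells. Tef stood at 31.5 and 28.5 CPM against 18.6 and 25.8, and Nfil3 at 24.7 and 18.8 CPM against 28.6 and 22.9. Among clock genes, Nr1d1 had 0 UMIs in the mitochondria-poor EV barcodes, which allows up to 6.75 CPM (3 counts), and 45 UMIs or 27.3 CPM in those of Bmal1 WT. Rora, an activator of the clock's second loop, stood at 173 CPM in EV and 58.2 in Bmal1 WT, and Arntl at 92.2 and 60.6 CPM.

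The genes around the factors were read from 3 lists: 19 core clock genes, 4 PAR bZIP target genes and 7 genes of the transcription factor circuit that Nfil3 belongs to in lymphoid and dendritic cells. None of them passed an adjusted p of 0.05 in any class. Arntl itself, in melanoma-like cells, read 55.8, 207 and 52.3 CPM in EV and 54.5, 61.3 and 58.9 CPM in Bmal1 WT, a log2 fold change of -0.07. The EV replicate at 207 CPM had 5 UMIs in 4 cells. Whether the 3′ tag would read an inserted Bmal1 is not known from the sources used here, so Arntl does not check the labels.

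**Figure D5:**
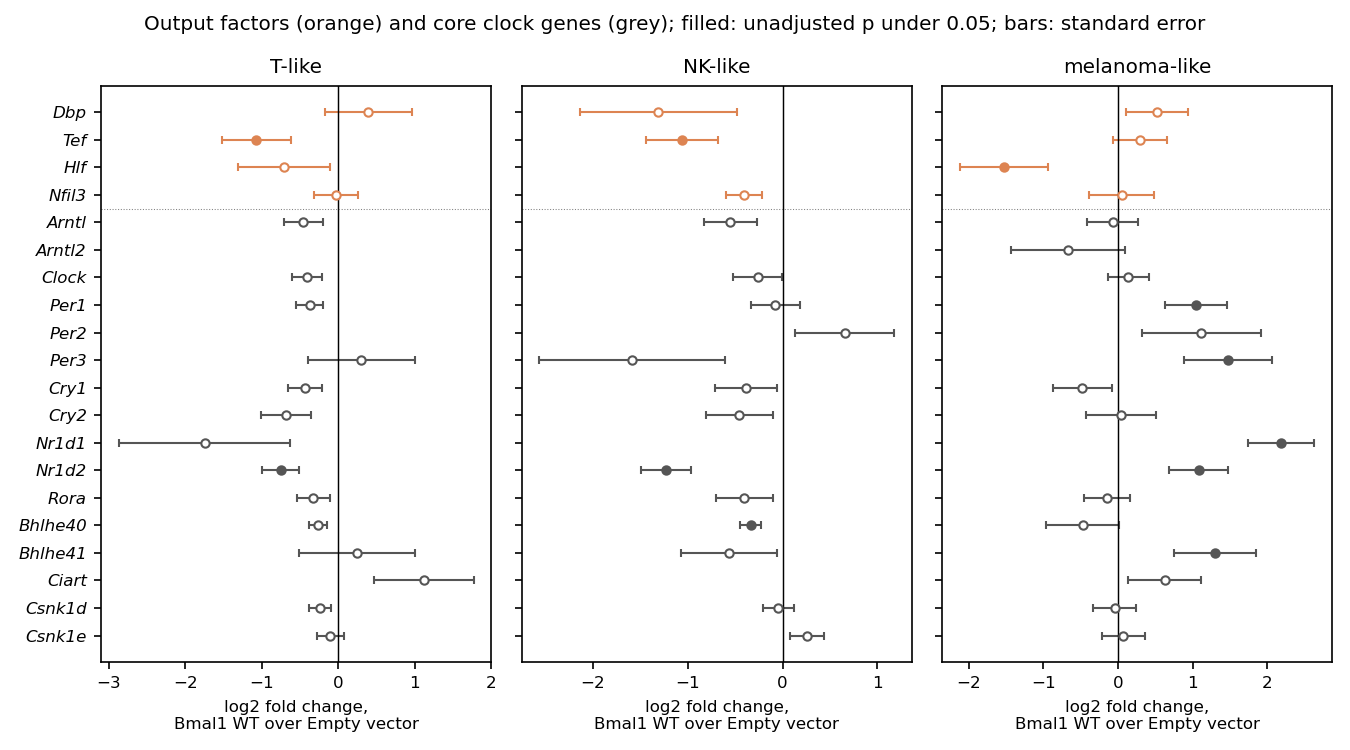
Fitted log2 fold change of Bmal1 WT over Empty vector (x axis) with its standard error (bars) for the output factors (orange) and the core clock genes shown (grey) in T-like, NK-like and melanoma-like cells, where filled points have an unadjusted p under 0.05. Nr1d1, Nr1d2, Per1, Per3 and Bhlhe41 lie above 0 in melanoma-like cells, and Nr1d2 lies below 0 in T-like and NK-like cells.

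In melanoma-like cells 5 of 17 core clock genes tested had an unadjusted p under 0.05, all higher in Bmal1 WT: Nr1d1, Nr1d2, Per1, Per3 and Bhlhe41. Of all 17, 11 were higher and 6 lower in Bmal1 WT. The 5 belong to the clock's negative limb, as do other genes of the list without such a p. In the promoter windows searched, Per1 and Bhlhe41 held the E-box, and Nr1d1, Nr1d2 and Per3 did not. The background share in melanoma-like cells was 4.44% of genes. Nr1d1 read 9.13, 41.4 and 9.37 CPM in EV and 56.8, 27.9 and 51.5 CPM in Bmal1 WT, where the 41.4 CPM rest on 1 UMI in 4 cells. Its log2 fold change was 2.19 ± 0.44 (SE; edgeR unadjusted p = 0.000357, adjusted p = 0.401). Without Bmal1 WT replicate h5 it was 2.47 with an adjusted p of 0.0104, and in no other replicate left out was the adjusted p under 0.05. With all genes of at least 1 UMI tested, it was 0.00521. Nr1d2 read 25.8, 0 and 12.3 CPM in EV and 31.5, 41.6 and 44.2 CPM in Bmal1 WT, a log2 fold change of 1.08 ± 0.39 (edgeR unadjusted p = 0.0181, adjusted p = 0.999994). The median over the 17 genes was 0.07, against -0.00 over all genes.

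In NK-like cells 3 of 14 core clock genes had an unadjusted p under 0.05, all lower in Bmal1 WT and among them Nr1d2 and Bhlhe40, against a background of 13.1% of genes. Nr1d2 read 33.1, 28.1 and 33.5 CPM in EV and 13.8, 15.4 and 9.54 CPM in Bmal1 WT, without overlap (as 1731 of 10328 genes in this class). Its log2 fold change was -1.23 ± 0.26 (SE, edgeR unadjusted p = 0.000488, adjusted p = 0.134, or 0.00818 with all genes of at least 1 UMI tested). The difference between its change in NK-like and in melanoma-like cells was -2.39 ± 0.52 (edgeR adjusted p = 0.0487), in a test added after the data had been seen that called 0.279% of genes. In T-like cells 3 of 16 had an unadjusted p under 0.05, all lower, against 17.8% of genes. Nr1d2 read 30.9, 35.8 and 23.2 CPM in EV and 15.5, 21.3 and 15.2 CPM in Bmal1 WT, also without overlap (as 2641 of 10774 genes in this class). Its log2 fold change there was -0.75 ± 0.24 (edgeR unadjusted p = 0.0104, adjusted p = 0.147). Elsewhere Bhlhe40 and Cry1 had an unadjusted p under 0.05 in Cd209a+ dendritic-like cells (both lower, 2 of 8 tested), Cry1 in fibroblast-like cells (lower, 1 of 16) and Bhlhe41 in Xcr1+ dendritic-like cells (higher, 1 of 8, with all 24 UMIs in 1 Bmal1 WT replicate). Medians over the core clock list were -0.40 in NK-like and -0.39 in T-like cells, against -0.08 and -0.10 over all genes.

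Of the PAR bZIP targets, genes of pyridoxal, haem and drug metabolism, 3 of 4 were tested in each of those classes and 0 of 3 had an unadjusted p under 0.05 in T-like, NK-like or melanoma-like cells. Pdxk, which makes pyridoxal phosphate, did in fibroblast-like cells, with a log2 fold change of -0.997 ± 0.379 (edgeR unadjusted p = 0.0243, adjusted p = 0.637). Of the Nfil3 circuit, 3 of 7 genes in NK-like cells had an unadjusted p under 0.05, all lower in Bmal1 WT, against 13.1% of all genes. Eomes, a T-box factor of NK cell maturation, read 581, 502 and 499 CPM in EV and 325, 449 and 365 CPM in Bmal1 WT, a log2 fold change of -0.48 ± 0.14 (edgeR unadjusted p = 0.00599, adjusted p = 0.195). Tbx21, its partner T-box factor, was -0.55 ± 0.18 and Irf8 -0.39 ± 0.13. In 3 other classes 1 gene of this list had an unadjusted p under 0.05, each lower: Tbx21 in T-like cells (-0.54 ± 0.21), Zeb2 in macrophage or monocyte-like cells (-0.34 ± 0.12) and Irf8 in fibroblast-like cells (-1.76 ± 0.61). Id2, the factor usually placed below Nfil3 in NK cell development, read 1812, 1509 and 1675 CPM in EV and 1275, 1620 and 1584 CPM in Bmal1 WT, with overlap.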

How the data were processed

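The authors deposited raw UMI counts per gene and barcode, made by Cell Ranger 6.1.2 from 10x Genomics 3′ v3.1 libraries and filtered to called cells. The submitters' processing notes name mm10. Barcodes with at least 200 genes and at most 20% mitochondrial UMIs were kept. Hashtags were called with a 2-component Gaussian mixture (scikit-learn 1.9.0), and barcodes with several hashtags, which can be doublets, entered no replicate but stayed in library values. A barcode joined the class with the highest mean of its 3 highest scaled markers, with at least 2 markers detected. Replicates needed 3 cells and genes 20 UMIs. UMI sums, scaled by total UMIs, were tested with edgeR 4.0.16 (R 4.3.3) without covariates, Benjamini-Hochberg at 0.05, and checked on simulated data. The SE is the log2 fold change divided by the square root of F. Differences between classes were fitted over both classes with the replicate as a block. Library totals were 34232927 UMIs (EV) and 39561569 (Bmal1 WT), and intervals and limits cover counting error only. Alternatives were TMM, DESeq2 1.42.0, other filters, hashtag calls, clusters (scanpy 1.11.5) and leaving out replicates. Positions are from GENCODE M21 (GRCm38), and promoter sequences from RefSeq. The text names the 4 factors, list genes with an unadjusted p under 0.05 first, and for each factor the 3 genes most like it. Cd4, Cd8, Foxp3, Il17a and Cd163l1 splits, Id2 and the leading genes of clusters were chosen after their values were seen. Some genes of the lists are not reported here. The factors and gene lists were chosen with earlier results of these data known.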

Additional observations from a re-analysis of the deposited data

Results flagged for a closer look

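Of 33 sets of replicates examined, 5 had a replicate far from the others, and in each the distant value rests on few cells or UMIs. How often counts this sparse would give such a replicate by chance was not tested. Dbp in mature dendritic-like cells was 4.80 CPM in EV h8 (3 UMIs), against at most 1.51 CPM in the other replicates. Tef in Cd209a+ dendritic-like cells was 14.5 CPM in Bmal1 WT h5 (3 UMIs in 13 cells), against at most 4.37 CPM. Hlf in Cd209a+ dendritic-like cells was 1.48 CPM in EV h8 from 1 UMI, against 0 elsewhere. Hlf in melanoma-like cells was 13.8 CPM in EV h8, all 28 UMIs in 1 cell. Nfil3 in melanoma-like cells was 82.8 CPM in EV h7, from 2 UMIs in 4 cells.

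For 2 genes the change between Bmal1 WT and EV was flagged as unlike between classes, and only the first of these was tested. The change of Nr1d2 in NK-like cells minus its change in melanoma-like cells was -2.39 on the log2 scale (edgeR adjusted p = 0.0487). Nfil3 was higher in Bmal1 WT in plasmacytoid dendritic-like cells (log2 fold change 1.84, 25 UMIs) and lower in NK-like cells (-0.41). Neither change passed an adjusted p of 0.05 (edgeR adjusted p = 0.387 and 0.386). Replicates did not overlap in either class, as for 1218 of 4423 and 1731 of 10328 genes tested there. The difference between these 2 classes was not tested.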

How the results depend on the processing

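No factor passed an adjusted p of 0.05 under any of the alternatives run, and the smallest adjusted p was 0.0567, for Tef in T-like cells with genes of at least 1 UMI. Of 324 values of a factor's change under an alternative, 32 had the opposite sign, and 9 of 21 changes never did. The opposite signs were Dbp in T-like cells with cluster classes (-0.082); Nfil3 in T-like cells with TMM (0.052) and DESeq2 (0.0032); with cluster classes in macrophage or monocyte-like cells Nfil3 (-0.092) and Tef (-0.94); Nfil3 with hashtags by the highest centred log count in Xcr1+ dendritic-like (-0.073) and melanoma-like cells (-0.53), the latter also with DESeq2 (-0.00054). Tef in mature dendritic-like cells gave 0.0043 with TMM, 0.031 with DESeq2, 0.065 with the stricter cell filter and 0.017 with those hashtags. Dbp in fibroblast-like cells gave 0.12, 0.10 and, with at least 10 cells per replicate, 0.16. Hlf in melanoma-like cells without the cell with the most Hlf UMIs gave 0.41. With cluster classes the macrophage or monocyte-like class was the cluster of 542 cells led by Cxcl3, Slfn4 and Arg1. Clusters led by Adgre4 and Ace (386 cells) and by Retnla and C1qa (232 cells) were not in it, so it is not the same set of cells.

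Leaving out 1 replicate in turn, changes that crossed 0 spanned -0.55 to 0.19 (Nfil3, T-like), -0.093 to 0.17 (Nfil3, macrophage or monocyte-like), -0.072 to 0.25 (Tef, macrophage or monocyte-like), -0.27 to 0.050 (Nfil3, mature dendritic-like), -0.36 to 0.11 (Tef, mature dendritic-like), -0.25 to 0.18 (Dbp, fibroblast-like), -0.78 to 0.11 (Nfil3, fibroblast-like), -0.38 to 0.23 (Nfil3, melanoma-like) and -0.0072 to 0.56 (Tef, melanoma-like). The counts of all genes called spanned 0 to 127 (T-like), 0 to 26 (NK-like), 0 to 66 (Xcr1+), 0 to 1 (mature), 0 to 2 (Cd209a+), 10 to 34 (plasmacytoid), 0 to 1 (fibroblast-like) and 0 to 99 (melanoma-like).

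Genes called in T-like cells went from 10 to 353 with cluster classes, 249 with DESeq2, 824 with at least 1 UMI, 18 with at least 100 UMIs, 63 with centred log hashtags and 70 with TMM. In NK-like cells they went from 0 to 10, 77 and 454 under the first 3 of these. With DESeq2 and with at least 1 UMI they were 13 and 106 in macrophage or monocyte-like, 0 and 78 in Xcr1+ dendritic-like, 2 and 27 in mature dendritic-like, 4 and 109 in Cd209a+ dendritic-like, 14 and 87 in plasmacytoid dendritic-like, 10 and 255 in fibroblast-like and 2 and 60 in melanoma-like cells. The single call in Xcr1+ dendritic-like cells went to 0 with at least 10 cells, cluster classes, at least 100 UMIs or centred log hashtags, and that in Cd209a+ dendritic-like cells to 0 with the last 3 of these and the stricter cell filter. The plasmacytoid dendritic-like count was 3 with at least 100 UMIs. The causes were not tested.

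With a mitochondrial limit of 0.5% Hlf in EV was 179 CPM, and with 2% it was 68.9 in EV and 26.3 in Bmal1 WT, where Nfil3 was 29.0. Weighting cells equally, the highest class means were 15.97 CPM for Dbp (fibroblast-like), 38.1 for Tef and 18.5 for Hlf (both melanoma-like). Thinning took the shares of cells with a UMI to 37.8% and 49.6% for Nfil3 in macrophage or monocyte-like cells, from 23.4% and 37.6% to 1.15% and 4.65% for Dbp in melanoma-like cells, and to 22.0% for Hlf in mitochondria-poor EV barcodes. No paired analysis was possible because the groups share no hashtag. Several changes rest on 24 to 60 UMIs, which limits what could be detected.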

Other observations

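Correlations were taken over 18 sums (9 classes in each library). These classes included the mitochondria-poor melanoma-like barcodes and left out plasmacytoid dendritic-like cells. The genes whose log2(CPM + 5) ran most like each factor, among those with at least 500 UMIs, were Pgrmc2 (Pearson r = 0.926), Nr1d1 (0.910) and Ank3 (0.903) for Dbp, and Atn1 (0.949), Herpud2 (0.941) and Fam160b1 (0.924) for Tef. For Hlf they were Sntb1 (0.930), Bpgm (0.921) and Spry1 (0.880), and for Nfil3 they were Osm (0.946), Fam49a (0.922) and N4bp1 (0.920). Dbp and Tef had an r of 0.655 with each other and Dbp and Nfil3 one of -0.754. The points share libraries, depth and the classes' overall differences, so these are descriptions without a test.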
